A study of Homo sapiens with 20 samples.

Results

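The genes described here are 10 immediate early genes of the EGR, NR4A and IER families in MDA-MB-468 cells treated with epidermal growth factor (EGF). They are the zinc finger factors EGR1, EGR2 and EGR3, the orphan nuclear receptors NR4A1, NR4A2 and NR4A3, and the immediate early response genes IER2, IER3, IER5 and PHLDA1. They were chosen by name, with earlier results of these data known, and all 10 were found among the 60271 genes measured. MDA-MB-468 is a triple negative breast cancer line with a high level of the EGF receptor. The cells were serum-starved, in the general protocol for a day before EGF. They were then either left untreated or treated with EGF at 50 ng/mL for 12, 24, 48 or 72 h, with 4 libraries per group and 20 libraries in all. All groups were seeded and harvested together, so the untreated control was also starved, and the groups differ in how long EGF was present. With a shared seeding and harvest, cells given EGF for a shorter time would also have been without serum for longer beforehand. The parts of these times cannot be told apart. The labels call the 4 libraries of a group biological replicates. No allele or transgene was used, and all libraries come from this 1 line.

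Immediate early genes are switched on within minutes of a growth factor signal, because the factors that read the signal are already in the cell. EGF binds its receptor and activates the ERK kinases, which phosphorylate ternary complex factors such as ELK1 on serum response factor (SRF) and, through RSK kinases, the factor CREB. The transcripts are short-lived, and several of their products act back on the pathway that made them, so the first peak usually lasts an hour or so. The earliest EGF time point here is 12 h, long after that first peak, and the values below describe what the transcripts did from 12 to 72 h of treatment.

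On build GRCh38, GENCODE places EGR1 at chr5:138465490-138469315 and NR4A3 at chr9:99821855-99866891 on the plus strand, with NR4A1 at chr12:52022832-52059507, IER2 at chr19:13150415-13154908 and IER5 at chr1:181088712-181092899 on the same strand. EGR2 at chr10:62811996-62919900, NR4A2 at chr2:156324432-156342348, IER3 at chr6:30743199-30744554 and PHLDA1 at chr12:76025447-76033932 are on the minus strand. With the exons of all annotated transcripts merged, IER3 and IER5 have 1 merged exon each, and the other 8 genes have between 2 and 11.

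SRF binds the CArG box, and CREB binds the cyclic AMP response element (CRE), whose core is TGACG. RefSeq promoter sequences (build GRCh38.p14) were given for 7 of the 10 genes, namely EGR1, EGR2, NR4A1, NR4A3, IER2, IER5 and PHLDA1. Each window held the 250 bases before a start site and a short stretch after it. The windows were searched on both strands for the CArG box, the CRE core TGACG, the full CRE TGACGTCA and the EGR sites GCGTGGGCG and GCGGGGGCG. They were also searched for the NR4A site AAAGGTCA, the AP-1 site TGANTCA and the TATAAA sequence. All matches found in these genes lay before the start site. A full CRE also holds the core. The promoters of EGR1, EGR2 and NR4A3 are shown because they hold most of the matches. Only the 250 bases before the start site are printed, with CArG boxes and CRE cores in capitals, 5′ to 3′ on the strand of the gene.
EGR1, chr5:138465229-138465478, plus strand: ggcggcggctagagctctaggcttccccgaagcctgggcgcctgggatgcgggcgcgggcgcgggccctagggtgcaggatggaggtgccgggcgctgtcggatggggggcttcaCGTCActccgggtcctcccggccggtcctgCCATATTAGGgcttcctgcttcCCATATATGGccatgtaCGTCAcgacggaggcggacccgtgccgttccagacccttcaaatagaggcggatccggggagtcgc
EGR2, start site 3, chr10:62816367-62816616, minus strand: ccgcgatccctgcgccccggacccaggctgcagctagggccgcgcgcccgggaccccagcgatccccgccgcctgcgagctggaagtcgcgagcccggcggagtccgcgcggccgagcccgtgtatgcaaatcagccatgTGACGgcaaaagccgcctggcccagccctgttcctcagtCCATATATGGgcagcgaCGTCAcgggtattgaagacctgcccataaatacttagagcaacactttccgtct
NR4A3, chr9:99821635-99821884, plus strand: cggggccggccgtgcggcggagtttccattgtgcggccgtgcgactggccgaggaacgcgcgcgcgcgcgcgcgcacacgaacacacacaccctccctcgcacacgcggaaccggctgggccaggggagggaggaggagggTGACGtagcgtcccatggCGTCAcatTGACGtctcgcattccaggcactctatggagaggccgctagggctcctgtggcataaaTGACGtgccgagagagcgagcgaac

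The EGR1 promoter holds 2 CArG boxes, at bases -105 to -96 and -83 to -74 from the start site, and 2 CRE cores. Start site 3 of EGR2 has 1 CArG box at -71 to -62, flanked by 2 CRE cores. The CArG box was found in 1.29% of the 35116 RefSeq promoter windows searched in the same way, and EGR1 and EGR2 were the 2 of the 7 genes with one. NR4A3 has 4 CRE cores and no CArG box, and IER2 has 1 CRE core, a sequence found in 24.6% of all windows. The 2 windows of NR4A1, those of IER5 and PHLDA1 and those of start sites 1 and 2 of EGR2 held none of the sequences searched. Start sites outside the windows given were not searched. These matches describe the letters in the windows, and no binding was measured.

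Counts are the deposited estimated counts, and levels are given in CPM, which are counts scaled to the size of the library as adjusted by TMM. Errors of a level are the SD of a group's 4 libraries. Changes are log2 fold changes from edgeR's quasi-likelihood test with their standard error (SE). An adjusted p is that test's p with Benjamini-Hochberg adjustment over the 16522 genes that passed edgeR's filter on low counts, with a threshold of 0.05. Library totals ran from 15611961 to 25856953 counts. The line's epithelial and basal markers were present in every group, with EGFR at a mean of 3474 CPM in the control and KRT18 at 788 CPM, while the progesterone receptor gene PGR had no count in any library and the leukocyte marker PTPRC and the fibroblast marker PDGFRB had at most 8. The estrogen receptor gene ESR1 had group means of 2.33 to 5.76 CPM, the fibroblast marker COL1A1 of 6.18 to 13.9 CPM and the endothelial marker PECAM1 of 0.374 CPM at 12 h to 4.20 CPM at 48 h. RNA was taken from whole cultures, so a change in every cell and a change in the share of cells that express a gene cannot be told apart. Mitochondrial genes took a mean of 10.9% of counts in the control and, in the order of the EGF times, 9.41%, 12.4%, 12.5% and 15.0%, and the part of these markers and shares in the results was not tested.

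Within a group, some libraries stood apart for many of these genes at once. Of the 9 genes tested, 72 h replicate 1 was the highest of its group in 7, control replicate 2 in 7 and 24 h replicate 4 in 7, while 24 h replicate 1 was the lowest of its group in 8. Replicate 1 at 72 h is also the library with the most counts. Calls that were lost without a library are named beside the values.

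EGR1, EGR2 and EGR3 encode zinc finger transcription factors that bind GC-rich sites and are restrained by the corepressors NAB1 and NAB2. EGR1 was at 48.8, 73.4, 41.9 and 58.2 CPM in control replicates 1 to 4. At 12 h of EGF it was at 85.2, 82.5, 82.2 and 87.1 CPM, and at 24 h at 19.9, 22.5, 24.0 and 27.0 CPM. In these TMM-scaled values all 12 h libraries lay above all controls and all 24 h libraries below them. By counts over library totals alone, control replicate 2 (1745 of 22155724) lay above 12 h replicate 4 (1821 of 23455737). The separation at 12 h thus depends on the scaling. In the mean, EGR1 was above the untreated level at the first time point and under it at the next one. At 48 h the values were 38.9, 45.7, 33.7 and 37.0 CPM, and at 72 h they were 52.2, 39.0, 36.9 and 37.2 CPM. These later values overlapped the lower controls.

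Against the control, EGR1 rose by 0.60 ± 0.14 (SE) on the log2 scale at 12 h (adjusted p = 0.000545) and fell by 1.25 ± 0.14 at 24 h (adjusted p = 1.47e-07). From 12 to 24 h the log2 fold change was -1.85 ± 0.15 (adjusted p = 1.11e-09), the deepest successive fall of this gene. EGR1 then recovered in part, with a log2 fold change of 0.73 ± 0.15 from 24 to 48 h (adjusted p = 0.000253), and remained under the control at 48 h (-0.52 ± 0.14, adjusted p = 0.00417) and at 72 h (-0.42 ± 0.14, adjusted p = 0.0121). The call at 72 h was lost without control replicate 2, the control with the highest EGR1 level (-0.26, adjusted p = 0.0763). No other of the 9 genes had its lowest EGF-treatment mean at 24 h.

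EGR3 was expressed at a low level and changed strongly. Its counts were 7, 16, 7 and 5 in the controls and 149, 115, 131 and 113 at 12 h. They were 9, 12, 18 and 30 at 24 h, 3, 3, 2 and 4 at 48 h, and 42, 10, 11 and 14 at 72 h. The 12 h libraries stood far above every other library, and the 48 h libraries were below every other library. The mean was 0.391 ± 0.193 CPM (SD, n = 4) in the control. In the order of the EGF times it was 6.61 ± 0.967, 0.935 ± 0.460, 0.143 ± 0.0466 and 0.924 ± 0.485 CPM.

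The rise of EGR3 at 12 h was 16.4-fold, a log2 fold change of 4.04 ± 0.34 (adjusted p = 1.90e-10). PHLDA1, with 3.81, had a rise of nearly the same size at that time. From 12 to 24 h EGR3 fell by 2.82 ± 0.31 on the log2 scale (adjusted p = 7.15e-08), and from 24 to 48 h by 2.70 ± 0.48 (adjusted p = 5.68e-05). It then rose again by 2.74 ± 0.47 from 48 to 72 h (adjusted p = 7.33e-05). With few counts per library in the control and 2 to 4 at 48 h, the size of these changes depends on the prior count. With a prior count of 2 in place of edgeR's default, the rise of EGR3 at 12 h was 3.76. The steps from 24 to 48 h and from 48 to 72 h were then -2.11 and 2.14.

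The remaining EGR3 differences from the control each rest on 1 or 2 libraries. The rise at 24 h (1.22 ± 0.39, adjusted p = 0.0100) was lost without 24 h replicate 4 (0.89, adjusted p = 0.0746). The fall at 48 h (-1.47 ± 0.53, adjusted p = 0.0273) was lost without control replicate 2 (-1.06, adjusted p = 0.130) or 48 h replicate 3 (-1.23, adjusted p = 0.0866). At 72 h the rise (1.27 ± 0.39, adjusted p = 0.00687) was lost without 72 h replicate 1 (0.80, adjusted p = 0.0939). An annotated transcript on the opposite strand shares 3.38% of EGR3's exon bases and had at most 8 counts in a library.

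EGR2 was close to silent. It had 27 counts over all 20 libraries, with none in 7 of them and at most 3 in 18, so it did not pass the filter on low counts and was not tested. The highest count was 6, in 12 h replicate 1. The window of its start site 3, shown above, holds the same kinds of matches as that of EGR1. With so few counts, no comparison of EGR2 between groups is made. EGR4, the other gene of this family, had at most 2 counts in any library and was not tested either.

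**Figure D1:**
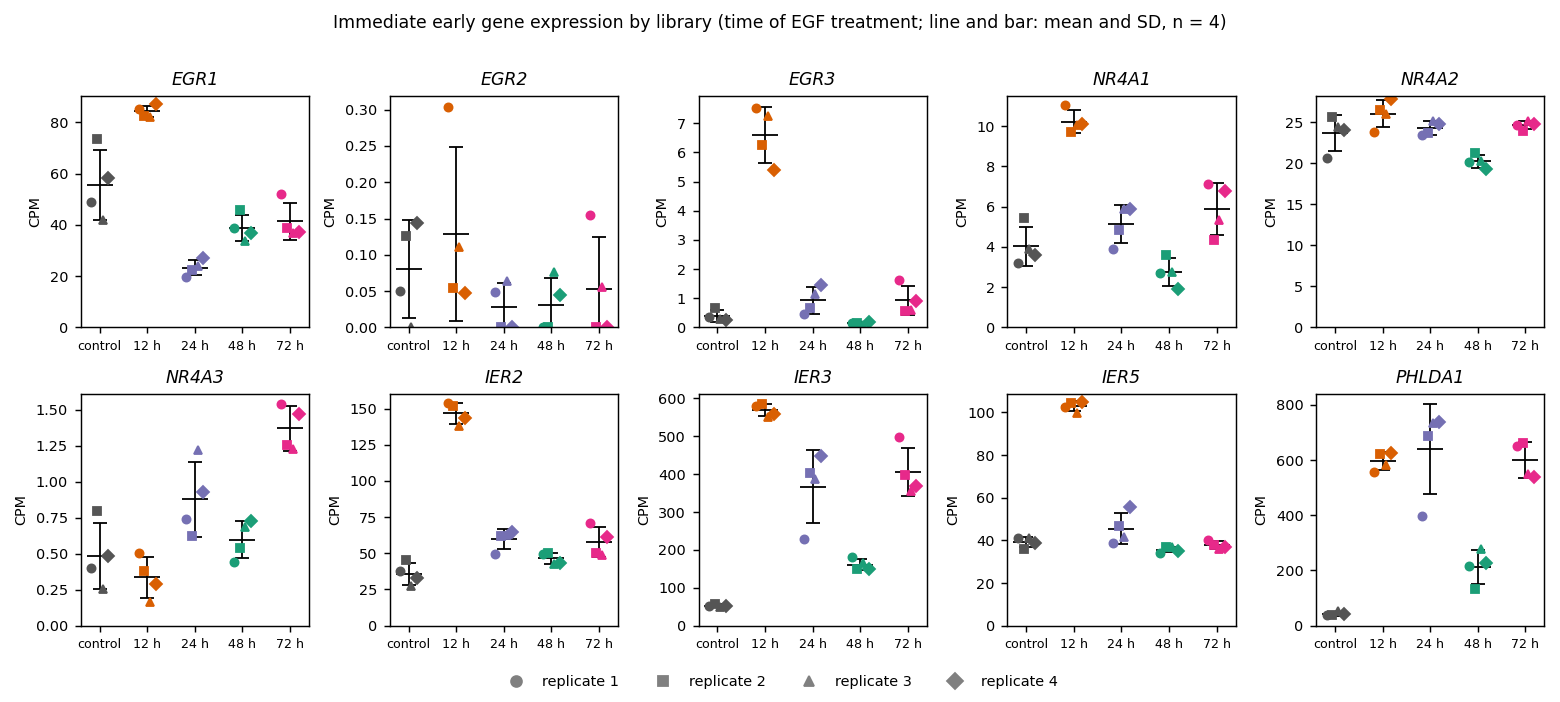
Expression of the 10 genes in each of the 20 libraries, in CPM after TMM normalization on axes that start at 0. Points are libraries, with the marker giving the replicate number, and the line and bar give the group mean and SD (n = 4). EGR3, NR4A1, IER2 and IER5 are high at 12 h, EGR1 is lowest at 24 h, IER3 and PHLDA1 are low in the control, and NR4A3 is highest at 72 h.

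The NR4A genes encode nuclear receptors that act without a known classical ligand, so their activity follows their amount, and NR4A1 and NR4A2 can pair with the retinoid X receptors. The 3 genes differed from each other in both level and course. NR4A1 was at 3.21, 5.42, 3.88 and 3.60 CPM in the controls and at 11.1, 9.70, 10.1 and 10.1 CPM at 12 h, with no overlap. At 24 h it was at 3.91, 4.86, 5.90 and 5.91 CPM, within reach of the controls. At 48 h it was at 2.72, 3.62, 2.74 and 1.90 CPM, and at 72 h at 7.13, 4.32, 5.36 and 6.77 CPM.

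NR4A1 rose by 1.34 ± 0.18 on the log2 scale at 12 h (adjusted p = 5.41e-07). It then fell by 0.99 ± 0.18 from 12 to 24 h (adjusted p = 6.15e-05) and by 0.91 ± 0.20 from 24 to 48 h (adjusted p = 0.000506), and rose by 1.11 ± 0.19 from 48 to 72 h (adjusted p = 8.25e-05). NR4A1 was below the control at 48 h (-0.56 ± 0.20, adjusted p = 0.0216) and above it at 72 h (0.55 ± 0.19, adjusted p = 0.0132), and each call rests on single libraries. The first of these was lost without control replicate 2 (-0.39, adjusted p = 0.107) or 48 h replicate 4 (-0.42, adjusted p = 0.0902), and the second without control replicate 1 (0.45, adjusted p = 0.0521) or 72 h replicate 1 (0.44, adjusted p = 0.0642). At 24 h the log2 fold change of 0.34 ± 0.19 did not pass the test (adjusted p = 0.123), but it passed without control replicate 2 (0.52, adjusted p = 0.0207) or 24 h replicate 1 (0.46, adjusted p = 0.0475).

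NR4A2 had a narrow range of CPM. It ranged from 20.6 to 25.7 CPM in the controls. In the order of the EGF times the ranges were 23.8 to 27.8, 23.4 to 25.2, 19.3 to 21.3 and 23.9 to 25.1 CPM. The 48 h libraries lay below all 12, 24 and 72 h libraries. Against the control, NR4A2 passed the test at 48 h alone (-0.23 ± 0.07, adjusted p = 0.0123), and it fell by 0.26 ± 0.07 from 24 to 48 h (adjusted p = 0.00457) and rose by 0.28 ± 0.07 from 48 to 72 h (adjusted p = 0.00393). At 12 h the log2 fold change was 0.13 ± 0.07 (adjusted p = 0.102), a value that passed without control replicate 2 (0.18, adjusted p = 0.0421) or 12 h replicate 1 (0.18, adjusted p = 0.0445) and turned to -0.15 when libraries were scaled by their totals alone. With that scaling the fall from 24 to 48 h was -0.11 (adjusted p = 0.249), and from only the 8 libraries compared the difference at 48 h was -0.23 (adjusted p = 0.0777). With factors per gene and library taken from the authors' normalized values, NR4A2 passed at 12 h with a log2 fold change of 0.51 (adjusted p = 0.0130) and did not pass at 48 h (-0.06, adjusted p = 0.828).

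NR4A3 was rare and had a course of its own. Its counts were 8, 19, 6 and 10 in the controls, 10, 7, 3 and 6 at 12 h, 15, 11, 19 and 19 at 24 h, 8, 11, 18 and 16 at 48 h, and 40, 22, 22 and 23 at 72 h. In CPM all 72 h libraries, at 1.23 to 1.54 CPM, lay above every library of the other groups, the next being 1.22 CPM in 24 h replicate 3, and NR4A3 was the one gene tested with its highest mean at 72 h and its lowest at 12 h. The log2 fold change at 72 h was 1.49 ± 0.31 (adjusted p = 0.000227), and at 12 h it was -0.53 ± 0.37 (adjusted p = 0.211). From 12 to 24 h NR4A3 rose by 1.36 ± 0.35 (adjusted p = 0.00236), while NR4A1 and EGR3 fell over the same step. From 48 to 72 h it rose by 1.18 ± 0.30 (adjusted p = 0.00371).

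The rise of NR4A3 at 24 h against the control was weaker (0.83 ± 0.33, adjusted p = 0.0323). Leaving out any one of control replicates 1, 3 and 4 or 24 h replicates 3 and 4 ended this call, with log2 fold changes of 0.61 to 0.83 and adjusted p of 0.0577 to 0.119, as did the DESeq2 Wald test (adjusted p = 0.0616). The 4 CRE cores shown above are in the promoter of this gene, and whether they bear on its course was not tested.

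IER2 and IER5 encode related proteins of 1 family, while IER3 is not related to them in spite of its name. IER2 is a nuclear protein that has been linked to cell motility, IER3 modulates ERK signaling and cell survival, and IER5 is a regulator of the heat shock factor HSF1. IER2 was at 37.9, 45.2, 27.1 and 32.9 CPM in the controls and at 154, 152, 138 and 143 CPM at 12 h. At 24 h it was at 49.7, 62.1, 62.3 and 65.0 CPM, at 48 h at 49.8, 50.0, 42.7 and 43.2 CPM, and at 72 h at 71.0, 50.3, 48.8 and 61.1 CPM. The 12 h libraries stood far above all the others, and the 24 and 72 h libraries also lay above all controls.

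IER2 rose by 2.04 ± 0.13 on the log2 scale at 12 h (adjusted p = 2.98e-12), by 0.74 ± 0.13 at 24 h (adjusted p = 3.46e-05) and by 0.69 ± 0.13 at 72 h (adjusted p = 6.63e-05). Most of the rise had gone by 24 h, with a step of -1.30 ± 0.13 from 12 h (adjusted p = 1.99e-08). The difference at 48 h was smaller (0.37 ± 0.13, adjusted p = 0.0210) and was lost without control replicate 3 (0.26, adjusted p = 0.0905), control replicate 4 (0.34, adjusted p = 0.0627), 48 h replicate 1 (0.34, adjusted p = 0.0579) or 48 h replicate 2 (0.34, adjusted p = 0.0605). This 48 h call was also lost without a filter (adjusted p = 0.0636) and from only the 8 libraries compared (adjusted p = 0.0571). The step from 24 to 48 h (-0.37 ± 0.13, adjusted p = 0.0209) was lost without 24 h replicate 4 (-0.32, adjusted p = 0.0651), 48 h replicate 3 (-0.33, adjusted p = 0.0599) or 48 h replicate 4 (-0.33, adjusted p = 0.0568). It was also lost with upper quartile scaling (-0.30, adjusted p = 0.0778), library totals alone (-0.21, adjusted p = 0.168) and no filter (-0.37, adjusted p = 0.0582). The step from 48 to 72 h (0.32 ± 0.13) missed the threshold (adjusted p = 0.0547) and passed it without 72 h replicate 2 (0.38, adjusted p = 0.0359) or 72 h replicate 3 (0.39, adjusted p = 0.0269).

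IER3 was at 52.0, 57.1, 48.6 and 52.9 CPM in the controls and at 580, 585, 551 and 560 CPM at 12 h. At 24 h it was at 228, 403, 386 and 449 CPM, at 48 h at 181, 151, 165 and 149 CPM, and at 72 h at 498, 398, 356 and 369 CPM. Every EGF library was above every control by a wide margin, with a fall to 48 h and a second rise at 72 h. The log2 fold changes against the control were 3.43 ± 0.16 at 12 h (adjusted p = 9.95e-14), 2.80 ± 0.15 at 24 h (adjusted p = 2.91e-12), 1.62 ± 0.15 at 48 h (adjusted p = 2.09e-08) and 2.95 ± 0.15 at 72 h (adjusted p = 1.11e-12).

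Between time points IER3 fell by 0.63 ± 0.14 from 12 to 24 h (adjusted p = 0.000878) and by 1.18 ± 0.14 from 24 to 48 h (adjusted p = 1.23e-06), and rose by 1.33 ± 0.14 from 48 to 72 h (adjusted p = 5.08e-07). Replicate 1 at 24 h was the lowest of its group, and without it the rise at 24 h against the control was 2.97. The antisense gene IER3-AS1 shares 26.5% of IER3's exon bases. Whether the counting used strand is not given in the sources used here, but IER3-AS1 had at most 6 counts in a library. For IER2, an opposite-strand gene that shares 30.8% of its exon bases had at most 1.

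IER5 was at 41.1, 35.9, 41.1 and 38.7 CPM in the controls and at 102, 104, 99.6 and 105 CPM at 12 h. At 24 h it was at 38.7, 46.6, 41.4 and 55.4 CPM, and the 48 and 72 h libraries ranged from 34.0 to 40.4 CPM. IER5 was thus raised in all 12 h libraries and within or just under the range of the controls at 48 and 72 h. It rose by 1.39 ± 0.08 on the log2 scale at 12 h (adjusted p = 5.56e-13) and fell by 1.17 ± 0.08 from 12 to 24 h (adjusted p = 1.05e-10) and by 0.35 ± 0.08 from 24 to 48 h (adjusted p = 0.00137).

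At 48 h the log2 fold change of IER5 against the control was -0.13 ± 0.08 (adjusted p = 0.205) and at 72 h it was -0.05 ± 0.08 (adjusted p = 0.617). The small rise at 24 h (0.22 ± 0.08, adjusted p = 0.0297) was lost without control replicate 2 (0.18, adjusted p = 0.0855), control replicate 4 (0.21, adjusted p = 0.0588), 24 h replicate 2 (0.21, adjusted p = 0.0623) or 24 h replicate 4 (0.11, adjusted p = 0.222), and with library totals alone (0.07, adjusted p = 0.458). From 24 to 72 h IER5 fell by 0.27 ± 0.08 (adjusted p = 0.0136), a call that was also lost without 24 h replicate 4 (-0.16, adjusted p = 0.102).

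PHLDA1 encodes a pleckstrin homology-like protein that binds and inhibits members of the EGF receptor family, and so acts back on the signal. It was at 38.8, 37.8, 51.9 and 41.4 CPM in the controls and at 555, 621, 583 and 626 CPM at 12 h. At 24 h it was at 399, 686, 734 and 739 CPM, at 48 h at 215, 132, 278 and 229 CPM, and at 72 h at 651, 663, 550 and 538 CPM. All EGF libraries lay above all controls, and those of 48 h lay below the libraries of the other 3 EGF times.

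PHLDA1 rose by 3.81 ± 0.22 on the log2 scale at 12 h (adjusted p = 7.49e-11), by 3.91 ± 0.23 at 24 h (adjusted p = 9.40e-11), by 2.33 ± 0.21 at 48 h (adjusted p = 1.02e-07) and by 3.82 ± 0.22 at 72 h (adjusted p = 1.02e-10). It did not pass the test from 12 to 24 h (0.10 ± 0.20, adjusted p = 0.691), where IER3 and IER2 fell. It fell by 1.58 ± 0.20 from 24 to 48 h (adjusted p = 6.02e-06) and rose by 1.49 ± 0.20 from 48 to 72 h (adjusted p = 2.00e-05). Replicate 1 at 24 h was again the low library, and without it the rise at 24 h was 4.09. Opposite-strand genes share 6.85% and 9.65% of its exon bases and had at most 1 and 18 counts.

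**Figure D2:**
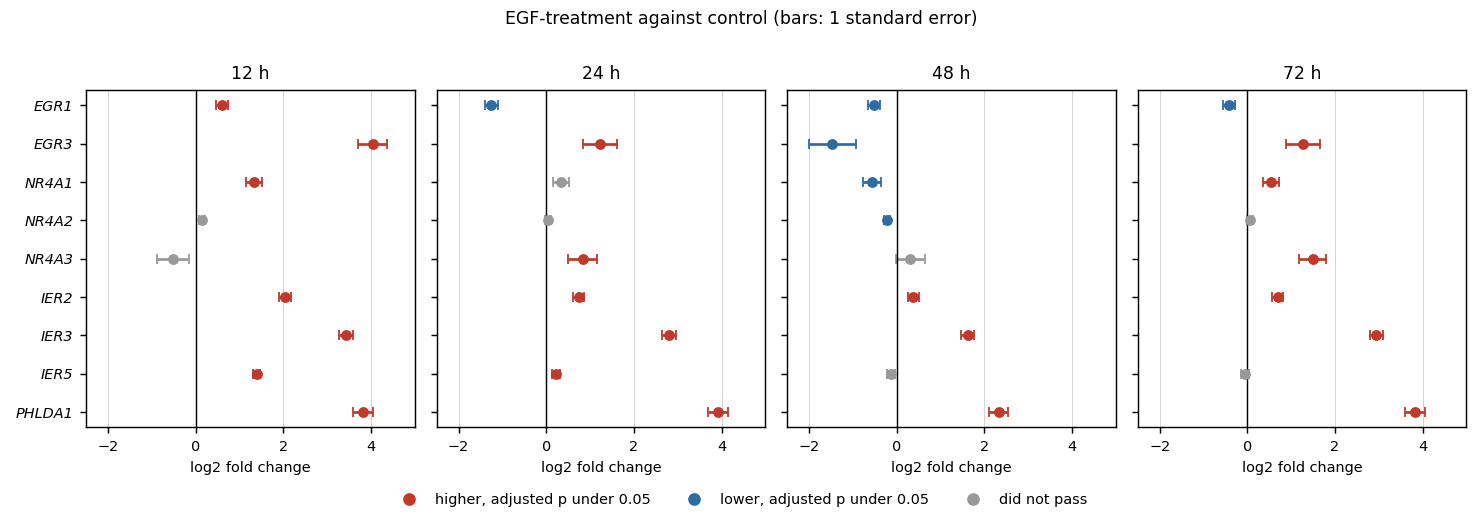
Log2 fold change of the 9 genes tested at each time of EGF-treatment against the same 4 control libraries. Points are edgeR estimates with bars of 1 SE, in red or blue where the adjusted p was under 0.05 and in grey where it was not. PHLDA1 and IER3 are far above 0 at all 4 times, EGR3 is at 4.04 at 12 h and -1.47 at 48 h, and EGR1 changes from 0.60 to -1.25 between 12 and 24 h.

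Counted together, 7 of the 9 genes tested rose at 12 h and none fell, where 69.4% of all genes tested were called, 32.9% of them as higher and 36.5% as lower. The median log2 fold change of the 9 was 1.39, against -0.05 for all genes tested. At 24 h, 6 rose and 1 fell, where 58.8% of all genes were called (29.2% higher, 29.6% lower), and the median was 0.74 against -0.01. At 48 h, 3 rose and 4 fell, where 45.8% of all genes were called (24% higher, 21.8% lower), and the median was -0.13 against 0.01. At 72 h, 6 rose and 1 fell, where 61.6% of all genes were called (30.6% higher, 31% lower), and the median was 0.69 against -0.01. The share of the 9 called in either direction, 77.8% at each of the 4 times, was thus not far from the background at 12 h, and all 4 comparisons share the control libraries.

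The rank of the time points was much alike among the genes. Of the 9 genes tested, 7 had their highest mean at 12 h, PHLDA1 at 24 h and NR4A3 at 72 h. Among the EGF-treatments, 7 of the 9 had their lowest mean at 48 h, with EGR1 lowest at 24 h and NR4A3 at 12 h. The times of highest and lowest mean were not counted over all genes tested. These counts thus do not set the 9 genes apart from the rest. From 12 to 24 h, 6 genes fell and 1 rose, where 53.7% of all genes tested were called (27.9% higher, 25.9% lower). From 24 to 48 h, 7 fell and 1, EGR1, rose, where 50.2% were called (25.9% higher, 24.3% lower). From 48 to 72 h, 6 rose and none fell, where 35.7% were called (17.9% in each direction). The genes that rose in this last step were EGR3, NR4A1, NR4A2, NR4A3, IER3 and PHLDA1.

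**Figure D3:**
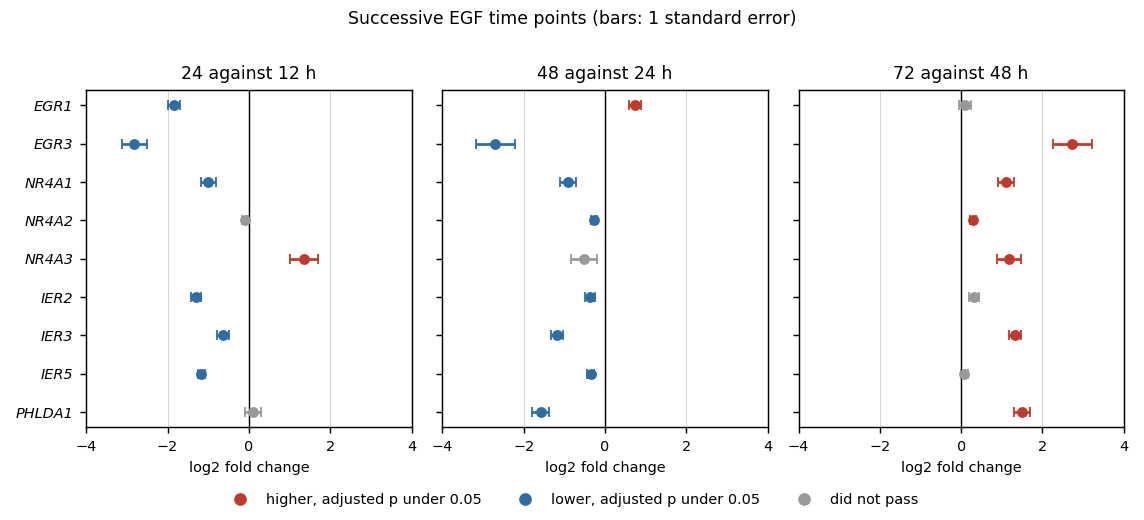
Log2 fold change of the 9 genes tested between successive times of EGF-treatment. Points are edgeR estimates with bars of 1 SE, in red or blue where the adjusted p was under 0.05 and in grey where it was not. Most points lie left of 0 in the first 2 panels and right of 0 in the last, with EGR1 right of 0 from 24 to 48 h (0.73) and NR4A3 right of 0 from 12 to 24 h (1.36).

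Between 12 and 48 h, all 9 genes passed the test, 8 of them lower and NR4A3 higher, where 70.3% of all genes tested were called (37.7% higher, 32.5% lower). The largest of these falls was that of EGR3 (-5.51 ± 0.40, adjusted p = 1.84e-11), followed by NR4A1 (-1.90 ± 0.19, adjusted p = 4.27e-09) and IER3 (-1.82 ± 0.15, adjusted p = 9.01e-10). With a prior count of 2 the EGR3 value was -4.81. The NR4A3 value of 0.83 ± 0.36 (adjusted p = 0.0430) was lost without 12 h replicates 2, 3 or 4 or 48 h replicates 3 or 4, with adjusted p of 0.0554 to 0.143. It was also lost without a filter (0.80, adjusted p = 0.103) and with the DESeq2 Wald test (0.82, adjusted p = 0.0974). With library totals alone the fall of NR4A2 from 12 to 48 h did not pass (-0.07, adjusted p = 0.423). Between 12 and 72 h, 6 were lower and NR4A3 was higher, where 67.6% were called (35.6% higher, 32% lower). The fall of IER3 between these times was lost with library totals alone (-0.28, adjusted p = 0.0740). Between 24 and 72 h, EGR1 rose (0.83 ± 0.15, adjusted p = 9.78e-05) and IER5 fell, where 40.2% were called (20.6% higher, 19.7% lower). The other 7 missed the threshold, which does not show that they were alike at these 2 times.

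Levels can be set beside each other only per length, so CPM was divided by each gene's merged exon length in kilobases. That length joins the exons of all annotated transcripts and can exceed that of the transcripts expressed. Close places in the order may thus depend on it. In the control the order of the mean levels was IER3 (38.9 CPM per kb), EGR1 (17.7), IER2 (11.7), IER5 (9.35), NR4A2 (5.98), PHLDA1 (5.27), NR4A1 (0.553), EGR3 (0.0805), NR4A3 (0.0767) and EGR2 (0.0217). The library ranges overlapped between EGR1 and IER2, between IER2 and IER5, between NR4A2 and PHLDA1 and between EGR3 and NR4A3. At 12 h the order was IER3 (420 CPM per kb), PHLDA1 (73.9), IER2 (47.8), EGR1 (26.9), IER5 (24.5), NR4A2 (6.57), NR4A1 (1.40), EGR3 (1.36), NR4A3 (0.0530) and EGR2 (0.0350), with ranges overlapping between NR4A1 and EGR3 and between NR4A3 and EGR2. PHLDA1 thus moved from sixth place to second. IER3 and PHLDA1 held the first 2 places at all 4 EGF times with no overlap, and IER2 had the next highest mean, with a range that overlapped that of EGR1 at 48 h (13.9 to 16.3 against 10.8 to 14.6 CPM per kb) and at 72 h (15.9 to 23.1 against 11.8 to 16.6 CPM per kb). By 72 h NR4A3 (0.217 CPM per kb) and EGR3 (0.190) again overlapped.

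Across the 20 libraries, Pearson's r between log2 CPM values describes which courses were alike. These points share groups, depth and the large effect of EGF, so r is given as a description. Among the members, IER3 and PHLDA1 were closest (r = 0.97), followed by EGR3 and NR4A1 (r = 0.94) and EGR3 and IER2 (r = 0.92). EGR1 was loosely related to EGR3 (r = 0.56) and had an r of 0.03 with IER3 and -0.19 with PHLDA1. NR4A3 had an r of -0.55 with IER5, the lowest of any pair.

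Among all other genes tested with a mean of at least 1 CPM, the genes most like each member were named by the highest r over the 20 libraries. For EGR1 this was CCN1 (r = 0.97), a matricellular protein gene that is itself an immediate early gene, and for IER3 it was DUSP5 (r = 0.99), a phosphatase of nuclear ERK. PHLDA1 was closest to the cell cycle kinase gene CDK6 (r = 0.99), and IER2 to the keratin gene KRT7 (r = 0.99). IER5 was closest to the ribosome biogenesis gene UTP4 (r = 0.98). EGR3 was closest to the keratin gene KRT23 (r = 0.97), NR4A1 to EGR3 (r = 0.94), NR4A2 to RNF144A (r = 0.85) and NR4A3 to TCF19 (r = 0.88).

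The closest relatives and partners of these genes are 8 genes in all, of which 7 were tested. At 12 h, 5 of the 7 rose and 1 fell, with a median log2 fold change of 0.42. PHLDA2 and PHLDA3, which encode short pleckstrin homology-like proteins related to PHLDA1, rose from means of 55.5 to 341 CPM (log2 fold change 2.62 ± 0.18, adjusted p = 1.05e-10) and from 8.86 to 29.4 CPM (1.73 ± 0.13, adjusted p = 2.51e-11). The corepressor genes NAB2 (0.53 ± 0.16, adjusted p = 0.00426) and NAB1 (0.26 ± 0.11, adjusted p = 0.0338) rose less. The NAB1 call was lost without control replicate 2 (0.17, adjusted p = 0.140), and without control replicate 4 or 12 h replicates 2, 3 or 4 (adjusted p of 0.0563 to 0.0717), and with library totals alone its value was -0.02. IER5L, a paralog of IER5, rose by 0.42 ± 0.10 (adjusted p = 0.000650). With library totals alone the NAB2 and IER5L calls were lost as well, at 0.25 (adjusted p = 0.164) and 0.14 (adjusted p = 0.237). RXRA, a partner of NR4A1 and NR4A2, fell from 32.3 to 20.9 CPM (-0.63 ± 0.10, adjusted p = 1.03e-05). At 24, 48 and 72 h, 3, 2 and 2 of the 7 rose and 2, 3 and 3 fell. The share of the 7 called was 85.7% at 12 h and 71.4% at each later time, against 69.4%, 58.8%, 45.8% and 61.6% of all genes tested in the order of the times.

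Of 31 other immediate early genes, 30 were tested. At 12 h, 25 rose and 3 fell, with a median log2 fold change of 1.24. FOSL1, an AP-1 subunit, had a mean of 2.78 CPM in the control and of 248 CPM after 12 h (log2 fold change 6.47 ± 0.25, adjusted p = 7.70e-14), and HBEGF, a ligand of the EGF receptor, went from 1.85 to 25.8 CPM (3.79 ± 0.19, adjusted p = 4.02e-14). FOS, the classical AP-1 gene, changed far less, from 3.42 to 6.05 CPM (0.82 ± 0.19, adjusted p = 0.000417), and JUNB rose from 17.0 to 57.9 CPM (1.77 ± 0.18, adjusted p = 2.99e-08). The kinase gene PLK3 rose by 2.90 ± 0.13 (adjusted p = 2.81e-15) and the zinc finger factor gene KLF6 by 2.85 ± 0.12 (adjusted p = 2.13e-15). At 24 h, 19 rose and 7 fell (median 0.44), at 48 h 12 rose and 8 fell (median 0.37), and at 72 h 22 rose and 5 fell (median 0.73). These are 93.3%, 86.7%, 66.7% and 90% called in the order of the times, against 69.4%, 58.8%, 45.8% and 61.6% of all genes tested, which were called in both directions in nearly equal numbers. The number that rose was highest at 12 h and lowest at 48 h, an order also seen for the 9 members and for all genes tested, of which 5433, 4819, 3966 and 5062 rose at the 4 times.

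The 14 upstream regulators comprise the receptor, the kinases and the factors that read their signal. At 12 h, 11 rose and 1 fell, with a median log2 fold change of 0.76. EGFR rose from a mean of 3474 to 11752 CPM (log2 fold change 1.76 ± 0.07, adjusted p = 1.72e-16), and ELK3, a ternary complex factor, from 7.58 to 145 CPM (4.26 ± 0.13, adjusted p = 1.83e-18). SRF rose by 0.90 ± 0.10 at 12 h (adjusted p = 1.17e-08) but had log2 fold changes of -0.06, -0.05 and -0.12 at 24, 48 and 72 h, with adjusted p of 0.628, 0.700 and 0.279. The RSK kinase genes RPS6KA1 (1.55 ± 0.08, adjusted p = 1.26e-14) and RPS6KA3 (1.04 ± 0.09, adjusted p = 2.96e-10) rose at 12 h. CREB1 rose at 12 h (0.86 ± 0.08, adjusted p = 8.07e-10) and was below the control at 24, 48 and 72 h. At 24, 48 and 72 h, 7, 6 and 5 of the 14 rose and 3, 2 and 3 fell. In the order of the times 85.7%, 71.4%, 57.1% and 57.1% of them were called, against 69.4%, 58.8%, 45.8% and 61.6% of all genes tested, so the share at 72 h was under the background. The count at 48 h was 5 in place of 8 without control replicate 4.

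**Figure D4:**
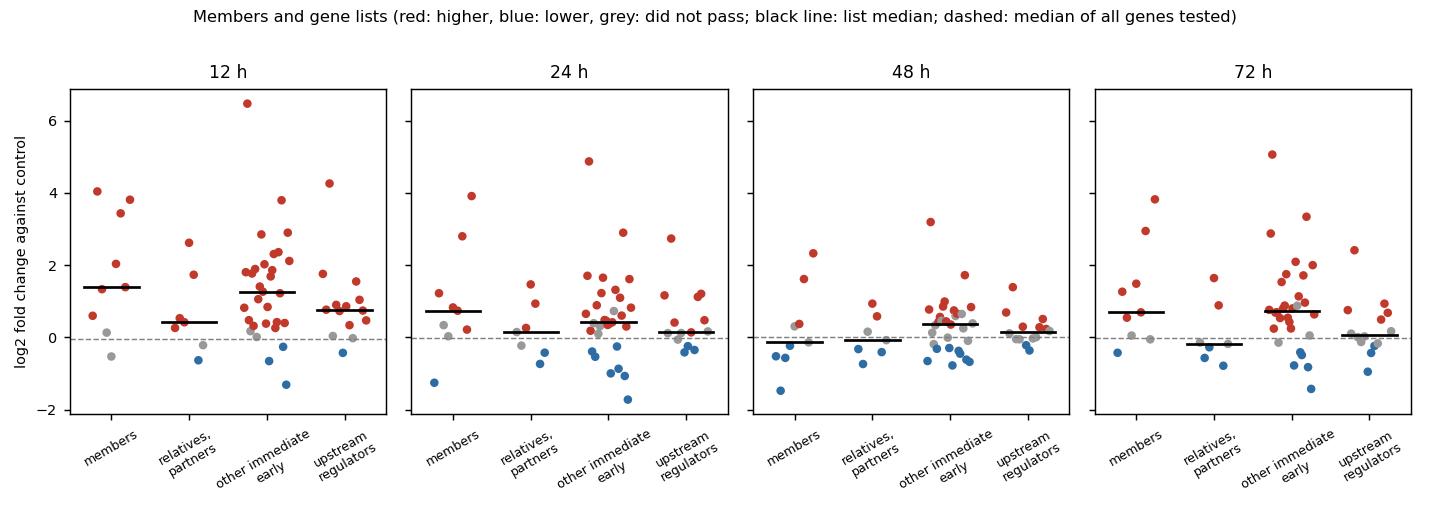
Log2 fold change against the control at each time of EGF-treatment for the members, their relatives and partners, the other immediate early genes and the upstream regulators, with 9, 7, 30 and 14 genes tested. Each point is a gene, in red where higher, blue where lower and grey where it did not pass, with a black line at the list's median and a dashed line at the median of all genes tested. The medians of the members and of the other immediate early genes are 1.39 and 1.24 at 12 h and -0.13 and 0.37 at 48 h.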

How the data were processed

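RNA of 20 MDA-MB-468 libraries was sequenced as single-end reads from Lexogen Corall mRNA libraries. The authors deposited, for each of 60271 genes, estimated counts in whole numbers and a normalized value made in DESeq2, which is a score on the counts' scale. Per the labels' processing notes the build is hg38. The aligner, the annotation, the use of strand and the handling of molecular identifiers are not given in the sources used here, so duplicates may be counted. The deposited fold changes and p-values of the authors' comparisons were not used.

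The deposited counts were analyzed with edgeR 4.0.16 in R 4.3.3 with filterByExpr, TMM, 1 model of all 20 libraries and a robust quasi-likelihood test and edgeR's default prior count. The procedure was tested on simulated data. Log2 CPM for the correlations used a prior count of 2. Alternatives were other scalings, filters and prior counts, only the 8 libraries compared, a replicate block, the DESeq2 1.42.0 Wald test, leaving out each library in turn and, chosen after seeing the data, factors per gene taken from the normalized values, where no library had under 20 counts. Exon lengths and overlaps are from GENCODE on GRCh38, which held 58036 of the gene IDs.

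Named are the 10 members, genes set per list (with up to 4 more by the largest change at 12 h among those called without overlap) and the 3 genes most alike per member, of which some are printed. The members and lists were chosen with earlier results of these data known. Replicates differed by 3.78 to 65.4 times the variance that sampling noise gives, over 30 pairs within groups. Library totals ran from 15611961 to 25856953 counts, so EGR2, EGR3 and NR4A3 rest on few counts, and errors cover the spread between these libraries.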

Additional observations from a re-analysis of the deposited data

Results flagged for a closer look

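In each group of 4 libraries, the highest or lowest value of each of the 10 genes was compared with the others by Dixon's test. Of 50 groups, 2 held a library far from the rest, and chance gives about 1 in 20. EGR1 in 72 h replicate 1 was at 52.2 CPM, with the other 3 libraries at 36.9 to 39.0 CPM. PHLDA1 in 24 h replicate 1 was at 399 CPM, with the other 3 at 686 to 739 CPM.

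Members that passed the test in opposite directions at different times were also set apart, with the direct test between these times from edgeR. EGR1 was above the control at 12 h and below it at 24, 48 and 72 h, with differences from 12 h of -1.85 (adjusted p = 1.11e-09), -1.12 (adjusted p = 2.98e-07) and -1.02 (adjusted p = 1.31e-06) on the log2 scale. EGR3 was above the control at 12, 24 and 72 h and below it at 48 h, with differences of -5.51 from 12 to 48 h (adjusted p = 1.84e-11), -2.70 from 24 to 48 h (adjusted p = 5.68e-05) and 2.74 from 48 to 72 h (adjusted p = 7.33e-05). NR4A1 was above it at 12 and 72 h and below it at 48 h, with differences of -1.90 from 12 to 48 h (adjusted p = 4.27e-09) and 1.11 from 48 to 72 h (adjusted p = 8.25e-05). The calls against the control of EGR1 at 72 h and of EGR3 at 24, 48 and 72 h were each lost when a certain library was left out. So were those of NR4A1 at 48 and 72 h. With a prior count of 2 the EGR3 difference from 12 to 48 h was -4.81.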

How the results depend on the processing

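Of 1901 alternative values of 108 log2 fold changes of named genes, 1784 kept their direction and side of the threshold, 72 were no longer past it, 15 newly passed it and 30 had the other sign. Of these last, 1 belongs to a change that had passed the test, NAB1 at 12 h (-0.019 with library size only). The others are of changes near 0. For NR4A2 they were -0.029 (upper quartile) and -0.15 (library size only) at 12 h, -0.014 and -0.11 at 24 h, -0.022 at 72 h with library size only, 0.015 and 0.039 from 12 to 24 h, and 0.059, 0.13 and, with at least 10 counts in every library, 0.010 from 12 to 72 h. For IER5 they were 0.0033 at 72 h with at least 10 counts in every library and -0.0060 from 48 to 72 h with library size only, for PHLDA1 -0.027 from 12 to 72 h without a filter, and for IER2 from 24 to 72 h 0.021 with library size only, 0.0065 with at least 10 counts and 0.0087 with factors per gene. Leaving out each library gave ranges that crossed 0 for NR4A2 at 24 h (-0.026 to 0.075) and 72 h (-0.0077 to 0.093), EGR1 from 48 to 72 h (-0.031 to 0.19), PHLDA1 from 12 to 72 h (-0.043 to 0.057), and, from 24 to 72 h, EGR3 (-0.42 to 0.37), IER2 (-0.15 to 0.027) and IER3 (-0.028 to 0.26). Library size only moved the median log2 fold change of all genes tested at 12 h from -0.05 to -0.34, and upper quartile scaling to -0.22.

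Of 7 members called at 24 h, 4 were called without 24 h replicate 4 (range 4 to 8 when each library was left out) and 4 with factors per gene, for which 7 of the 9 members had enough counts. Of 7 called at 48 h, 3 were called from only the 8 libraries and 4 with factors per gene, and of 7 at 72 h, 4 with factors per gene. Of 8 called from 24 to 48 h, 5 were called with library size only and 5 with factors per gene. The upstream regulators called at 48 h went from 8 to 5 from only the 8 libraries and to 4 with factors per gene, with a range of 5 to 8 when each library was left out. The cause of these shifts was not tested, apart from the fewer genes or libraries that some settings use.

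The replicate numbers showed no general pairing of the libraries. Over 40 pairs of libraries with the same number, deviations from the group means had correlations of -0.239 to 0.348 (median 0.0092), 5 of them over 0.1. The highest, 0.348 and 0.328, were of 48 h replicates 3 and 2 with the controls of the same number. These values do not decide whether some libraries were paired. With a replicate block, 7 members were called at 12, 24, 48 and 72 h against the control, as without it, and 7 in place of 6 from 48 to 72 h, where IER2 passed (adjusted p = 0.0442). NR4A3 from 12 to 48 h no longer passed with the block (adjusted p = 0.0565). Depth limits EGR2, EGR3 at 48 h and NR4A3, which had few counts.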
